A study of Pimephales promelas with 139 samples.

Results

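The transcripts described here are the 200 most abundant of whole fathead minnow (Pimephales promelas) larvae, out of 37085 identified transcripts in a table of mRNA read counts. They were chosen by a measured value: the mean over the 29 control larvae of CPM, which is a transcript's count divided by its library's total and multiplied by 1000000. The choice therefore makes their high level in controls a given, and the 110 exposed larvae are the samples that the choice did not use. Each library is a single whole larva, which entered static water at 48 h after hatching, was exposed for 48 h and was collected at 96 h of age. The exposed larvae received ethinyl estradiol (EE2), the synthetic estrogen of oral contraceptives, at 5 concentrations: 0.12 (17 larvae), 1.2 (30), 2.5 (18), 5 (17) or 10 ng/L (28), and the controls received 0 ng/L. The work was done as 3 experiments with 46, 46 and 47 larvae, and each experiment held every concentration. Strain, sex, parentage and the vessel a larva came from are not given in the labels, so p-values measure the spread between these larvae only. The title of the series gives its purpose as the development of omic biomarkers for this exposure in a small freshwater fish used in toxicity testing.

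In a whole larva, the RNA pool is dominated by a small part of the genome. In vertebrates generally the most abundant messages encode parts of the ribosome, the contractile and structural proteins of muscle and skin, enzymes of energy metabolism, and secreted proteins of the gut and liver, and their levels follow how much of each tissue is present. Ethinyl estradiol acts through estrogen receptors, which are nuclear receptors that switch the transcription of target genes, and its best known target in fish is the liver's egg yolk precursor. The table lists transcripts by identifier only, and 0 of the 200 matched the 64593 genes of the reference table for the species, so no function is attached to any of them, no sequence is shown, and the label of whole larva was not checked against markers. A level in CPM is also not divided by transcript length. The order given here is an order of reads, not of molecules. In RNA from whole larvae, fewer cells of a type and less RNA per cell cannot be told apart.

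The smallest library had 8756290 counts, the largest 32906788 and the median library 23.5 M. A median of 19977 reads fell on a member in a library, and counting error alone then gives a coefficient of variation (CV, the SD as a percent of the mean) of 0.707% for the median member. One library stood apart. In 2.5 ng/L replicate 7 of experiment 1, the reads fell on 30768 transcripts, where the next lowest library had 34800 and the median library 36597. Its TMM scaling factor was 0.468, and that of the next lowest library 0.785 (TMM, the trimmed mean of M values, sets libraries to a common scale through the bulk of their transcripts). Results that rest on this library are given with and without it.

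In the control larvae the share of the 200 transcripts ran from 26.4% to 35.7% of a library's reads, with a median of 30.4%. The reads were concentrated within the list as well. The first transcript took 1.92% of the reads on average (SD 0.321, n = 29), the first 10 together 8.86%, the first 50 19.0% and the first 100 24.3%, while the first 1000 transcripts of the table reached 48.7%. The list has no natural edge. The last 5 ranks had mean control levels of 472.7 CPM for FMt028650, 472.4 for FMt019320, 471.5 for FMt037176, 470.0 for FMt006670 and 469.3 for FMt027199. Just outside the list, FMt041399 had 468.7 CPM, FMt034645 467.9, FMt005851 467.1, FMt006764 464.2 and FMt008185 463.7.

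The share of reads in the list overlapped between all concentrations. The 0.12 ng/L larvae had a median of 31.3% (27.01% to 39.2%, n = 17) and the 1.2 ng/L larvae of 30.8% (24.6% to 36.7%, n = 30). At 2.5 ng/L the median was 31.0% (26.8% to 49.4%, n = 18). The larvae of the higher groups had medians of 31.8% at 5 ng/L (27.5% to 36.3%, n = 17) and 30.2% at 10 ng/L (27.6% to 35.4%, n = 28). The medians did not follow the order of the concentrations. Without replicate 7 the 2.5 ng/L group had a median of 30.9% and a maximum of 35.5%. Among exposed larvae the median share was 31.1% in experiment 1, 31.5% in experiment 2 and 30.3% in experiment 3. The share is a sum over transcripts that were chosen for their level, and no test between groups was made on it.

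**Figure D1:**
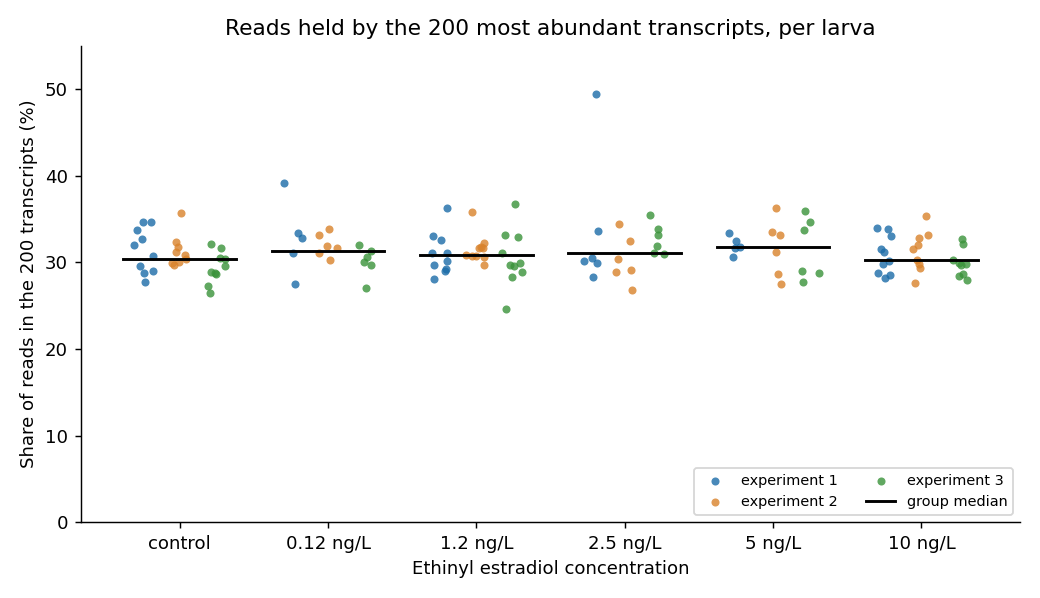
Share of each library's reads (percent, vertical axis) that fell on the 200 transcripts, for every larva by EE2 concentration; points are larvae coloured by experiment and black lines are group medians. The group medians lie between 30.2% and 31.8%, and 2.5 ng/L replicate 7 stands alone at 49.4%.

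The list carried over to the larvae that had not chosen it. Of the 200, 191 were among the 200 highest by mean CPM over all exposed larvae, and 190, 190, 184, 189 and 193 were among the 200 highest at 0.12, 1.2, 2.5, 5 and 10 ng/L. Without replicate 7 the count at 2.5 ng/L was 191. In single exposed larvae between 144 and 188 of the list were in the larva's own first 200, with a median of 180. The count of 144 belongs to replicate 7, and without it the lowest was 161. In every exposed larva 93 members stayed within the first 200, whereas 14 did so in fewer than 55 of the 110 larvae.

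The first ranks changed little between larvae. FMt013628 and FMt019743 held the first 2 ranks in 107 of the 110 exposed larvae, FMt013628 being the highest in 68 and FMt019743 in 42. FMt013628 ran from 13980 to 24722 CPM in controls with a median of 18721. Its medians in the exposed groups were 20023, 18462, 18434, 18257 and 18629 CPM from the lowest to the highest concentration, and every exposed group overlapped the controls. FMt019743 ran from 10324 to 24540 CPM in controls with a median of 18208, and its exposed medians were 18784, 17582.5, 18809.7, 18531 and 16731 CPM in the same order. The levels of these transcripts overlapped each other in every group.

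Below them the mean level in controls dropped by a wide step, to 9234 ± 1411 CPM (SD, n = 29) for FMt030989 and 8053 ± 1723 CPM for FMt007225. FMt013626 followed at 7479 ± 1343 CPM, FMt013625 at 6744 ± 1067 CPM and FMt006732 at 5551 ± 864 CPM. FMt024643 had 4975 ± 692 CPM, FMt034822 4949 ± 800 CPM and FMt039940 4538 ± 468 CPM. From FMt030989 downward, neighbours in this order differed by less than 1 SD of either, except FMt013625 and FMt006732, which differed by more. Their exposed group means stayed close to these levels: FMt030989 averaged between 8692 CPM in the 0.12 ng/L group and 9133 CPM in the 5 ng/L group, and FMt039940 between 4518 CPM in the 1.2 ng/L group and 4952 CPM in the 5 ng/L group.

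Over all 200 members, the highest exposed group mean was a median of 1.14 times the lowest. The largest ratio was 1.57, for FMt017776, which averaged 474 ± 374 CPM (SD, n = 28) in the 10 ng/L group and 301 ± 168 CPM (n = 17) in the 5 ng/L group and was the only member above 1.5. Without replicate 7 the median ratio was 1.09, and 2 members exceeded 1.5. The corresponding ratio between the 3 experiments had a median of 1.08, and 4 members exceeded 1.5. Over single larvae, the highest CPM of a member was a median of 4.36 times its lowest, 21 members spanned more than 10-fold, and 10 spanned less than 2-fold. Replicate 7 held the highest value for 93 members and the lowest for 42. Without it the median ratio was 2.98, with 14 members above 10-fold and 15 below 2-fold.

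The question the design puts first is whether EE2 changed these levels. Among the exposed larvae, which are independent of the choice, no member was called for a trend with the concentration. The edgeR quasi-likelihood trend on log2 concentration called 0 of the 200 at an adjusted p under 0.05 (Benjamini-Hochberg over 34930 transcripts), against 0.0258% of all transcripts tested, and 0 members had an unadjusted p under 0.05. The log2 slopes per doubling of the concentration lay between −0.04 (FMt015211) and 0.04 (FMt003004), with a median standard error (SE) of 0.02. DESeq2 and limma-voom also called 0 members for the trend. The 0 members with an unadjusted p under 0.05 stand without a share over all transcripts, so that count is no measure of absence.

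Between the ends of the range, 10 against 0.12 ng/L, edgeR likewise called 0 members, against 0.0229% of all transcripts, and 2 members had an unadjusted p under 0.05. That count of 2 likewise has no share over all transcripts beside it. DESeq2 and limma-voom called 0. The log2 differences ran from −0.37 for FMt015211 to 0.43 for FMt017776 with a median of −0.08, and their SEs had a median of 0.13 and reached 0.34. Differences of this size are therefore not resolved for the more variable members. A joint F-test of the 5 concentrations called 0 members in edgeR, against 0.0601% of all transcripts. Here 69 members had an unadjusted p under 0.05 (34.5%, beside 6.03% of all transcripts), but 1 did so without replicate 7 (0.5%, beside 2.71%). DESeq2 called 6 members in that joint test, where it called 0.0573% of all transcripts, and limma-voom called 0.

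Whether the trend differed between experiments was tested as an interaction. It called 0 members in edgeR, DESeq2 and limma-voom, against 0.00286% of all transcripts in edgeR. In edgeR 0 members had an unadjusted p under 0.05, again a count without a share over all transcripts. Of the variation in TMM-scaled log2 levels among exposed larvae, the median member had 1.62% between experiments, 4.12% between concentrations and 93.6% in the rest. The rest holds the spread between larvae and any difference between concentrations that varied by experiment. For all transcripts tested the medians were 2.16%, 3.33% and 93.7%, and the degrees of freedom alone would put 1.83% and 3.67% between experiments and concentrations. Without replicate 7 the median between concentrations was 2.79% for the members. With CPM of the library total in place of TMM scaling, the members' medians were 2.66% between experiments and 4.15% between concentrations, beside 2.10% and 3.28% for all transcripts.

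Differences from the controls are not independent of the choice, since the control levels made the list, and all 5 comparisons share the same controls. They are given as a description. No member was called in edgeR at 0.12 ng/L (0% of all 35340 transcripts tested were called), at 1.2 ng/L (0.0113%), at 5 ng/L (0.0141%) or at 10 ng/L (0.158%). Members with an unadjusted p under 0.05 numbered 13, 9, 28 and 8 in these comparisons, which is 6.5%, 4.5%, 14.0% and 4.0% of the list beside 4.08%, 2.99%, 6.34% and 5.95% of all transcripts tested. Without replicate 7, which also enters the common estimate of the spread, 25 members had such a p at 0.12 ng/L and 50 at 5 ng/L (4.72% and 7.50% of all transcripts). DESeq2 and limma-voom called 0 members in each. At 0.12, 1.2 and 2.5 ng/L, DESeq2 gave 5 members no adjusted p, so it could not call them.

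At 2.5 ng/L, 69 members were called, 68 higher and 1 lower than in controls, where 2.69% of all transcripts were called, 2.53% higher and 0.161% lower. These calls rest on replicate 7. Without this library 0 members were called, against 0.0142% of all transcripts, and 20 had an unadjusted p under 0.05 (10.0%, beside 8.16% of all transcripts). All 69 kept their sign without it, while the median size of their difference went from 0.52 to 0.16 on the log2 scale. Limma-voom called 0 members with the library included, DESeq2 called 84 (where it called 4.01% of all transcripts), and edgeR without a scaling factor called 0.

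The named rises show the same. FMt036741 ran from 574 to 1206 CPM in controls with a median of 764. At 2.5 ng/L it ran from 577.5 to 5170.4 CPM with a median of 937, and without replicate 7 its highest value was 1107 CPM. A single larva set the top of that range, and the others lay within the range of the controls. Its log2 difference was 0.84 ± 0.17 (SE; edgeR adjusted p = 0.00468), and 0.17 without replicate 7 (adjusted p = 0.657, the highest over 14 alternatives). For FMt045091 the control range was 612 to 1447 CPM with a median of 900.3, and the 2.5 ng/L range was 645 to 5010.2 CPM with a median of 1021. Its highest value without replicate 7 was 1498 CPM, and its log2 difference was 0.80 ± 0.16 with that library and 0.23 without it. The member that was lower, FMt022653, ran from 505 to 1258 CPM in controls (median 917) and from 160 to 1113 CPM at 2.5 ng/L (median 718). Its log2 difference of −0.28 ± 0.08 (adjusted p = 0.0434) was −0.25 without replicate 7 (adjusted p = 0.526, likewise the highest over 14 alternatives). The size of this fall thus changed little without that library, unlike the rises, though the call was lost.

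The members lay slightly above the controls on average at each concentration. From the lowest to the highest concentration their median log2 difference was 0.11, 0.05, 0.27, 0.14 and 0.03, beside medians over all transcripts tested between 0.00 and 0.01. Without replicate 7 the median at 2.5 ng/L was 0.10, and with no scaling factor the medians were 0.06, 0.02, 0.11, 0.09 and 0.02, beside −0.03, −0.02, −0.06, −0.04 and −0.01 over all transcripts. Members with a positive difference numbered 160, 153, 168, 172 and 140 of 200, and 140, 129, 137, 157 and 124 with no scaling factor. At 2.5 ng/L without replicate 7 they numbered 159. Because the 5 comparisons share their controls, these counts are not separate pieces of evidence.

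**Figure D2:**
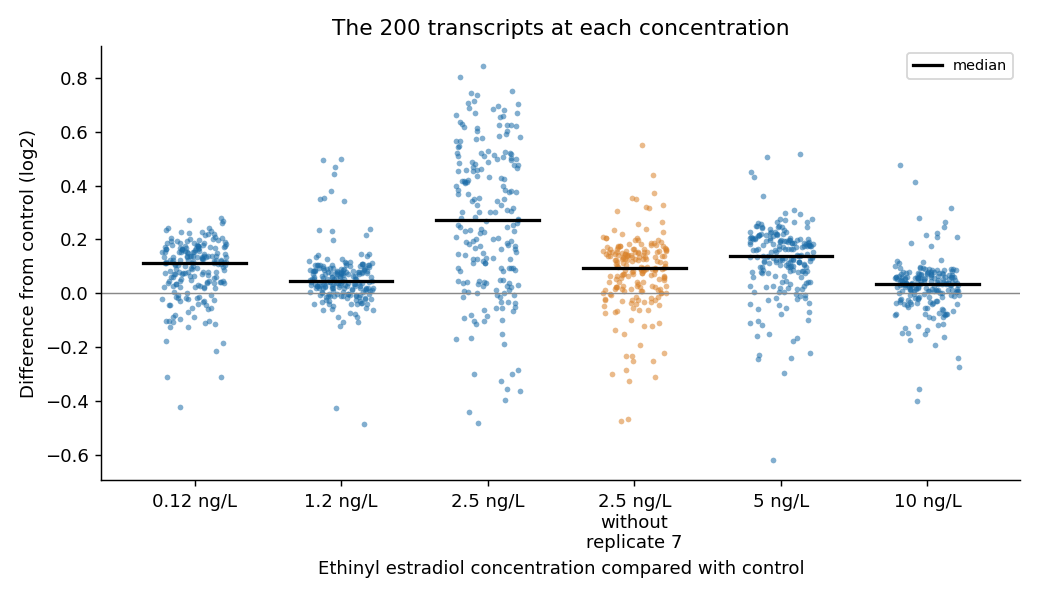
Difference of each of the 200 transcripts from control (log2, vertical axis; edgeR estimates from all larvae) at each EE2 concentration, with 2.5 ng/L also shown without replicate 7; each point is a transcript and black lines are medians. The median at 2.5 ng/L is 0.27 with replicate 7 and 0.10 without it, beside 0.03 to 0.14 at the other concentrations.

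Members called between the experiments are given beside the share over all transcripts. Members rose and fell together from larva to larva, so their calls are not separate counts. Whether the shares of members and of all transcripts differ was not tested. Among exposed larvae, the joint test of the 3 experiments called 21 of the 200 members in edgeR (10.5%), where 6.78% of all transcripts tested were called. Without replicate 7 it also called 21, of which 20 were the same, against 8.39% of all transcripts. The highest experiment mean of these members was between 1.11 and 2.18 times the lowest, with a median of 1.22. It fell in experiment 1 for 8 of them, in experiment 2 for 7 and in experiment 3 for 6, and the lowest mean was in experiment 3 for 11. The control larvae are not in this test, but their levels chose the members. They had the same highest experiment for 15 of the 21 and the same lowest for 17. These counts have no share over all transcripts beside them and are a description only.

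FMt031558 had the smallest p of the joint test (adjusted p = 4.46e-05). Among exposed larvae it ran from 829.5 to 2079.9 CPM in experiment 1 (median 1659.7), from 1335 to 2163 CPM in experiment 2 (median 1633) and from 858 to 1726 CPM in experiment 3 (median 1429.7). Experiment 3 was the lowest, with ranges that overlap. The next was FMt025316 (adjusted p = 0.000517), with medians of 930.4, 748 and 836 CPM in experiments 1, 2 and 3.

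In experiment 2 against 1, 6 members were called (3% of the list, beside 3.69% of all transcripts). Of these, 2 were higher (1%, beside 2.14%) and 4 lower (2%, beside 1.55%). FMt028650 rose from 329.7 ± 96.4 CPM (SD, n = 36) to 469 ± 119 CPM (n = 37), a log2 difference of 0.43 ± 0.11 (SE; adjusted p = 0.00967). FMt025320 fell from 1888 ± 411 to 1465 ± 290 CPM, a log2 difference of −0.44 ± 0.09 (adjusted p = 0.00145). For FMt025316, which was also lower, the difference was −0.42 ± 0.08 (adjusted p = 0.000255). Members were named here only if the direction held in all 5 concentrations, as it did for 4 of the 6 called.

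In experiment 3 against 1, 15 members were called (7.5% of the list, beside 4.51% of all transcripts). Of these, 4 were higher (2%, beside 2.39%) and 11 lower (5.5%, beside 2.12%). With no scaling factor the split was 7 higher and 8 lower. FMt028650 was again higher, at 525 ± 167 CPM (SD, n = 37) in experiment 3, by 0.56 ± 0.11 (adjusted p = 0.000404), and FMt018152 was higher by 0.34 ± 0.10 (adjusted p = 0.0219), a call kept in 8 of 9 alternatives. FMt015350 fell from 642 ± 261 to 388 ± 224 CPM, or −0.80 ± 0.17 (adjusted p = 0.000758). FMt044896 was lower, with a log2 difference of −0.36 ± 0.11 (adjusted p = 0.0396), and its adjusted p was 0.0512 without replicate 7, the highest over 9 alternatives.

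In experiment 3 against 2, 5 members were called (2.5% of the list, beside 1.45% of all transcripts). Of these, 1 was higher (0.5%, beside 0.481%) and 4 lower (2%, beside 0.971%). With no scaling factor 2 were higher and 1 lower. The higher member was FMt018152, by 0.34 ± 0.09 (adjusted p = 0.0432), a call kept in 7 of 9 alternatives. FMt031558 was lower, with a log2 difference of −0.26 ± 0.05 (adjusted p = 0.000989). The most abundant transcript, FMt013628, fell from 20827 ± 4335 CPM (SD, n = 37) in experiment 2 to 18117 ± 2362 CPM (n = 37) in experiment 3, or −0.23 ± 0.06 (adjusted p = 0.0364). It was called in 6 of 9 alternative analyses.

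Replicate 7 also bore on the members as a body. Their median log2 difference was −0.09 in experiment 2 against 1 and −0.11 in experiment 3 against 1, beside 0.00 and −0.02 over all transcripts. Without that library, which belongs to experiment 1, the members' medians were 0.01 and 0.02.

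The spread between larvae of the same concentration and experiment was smaller for the abundant transcripts than for the table as a whole, and far above counting error. For each member the CV of its CPM was taken within each of the 15 combinations of concentration and experiment among exposed larvae, and the median of these was kept. Over the 200 members it had a median of 16.9% with quartiles of 14.2% and 22.05%, beside 27.8% with quartiles of 18.3% and 43.5% over the 34930 transcripts tested. Lower counts raise the CV of the less abundant transcripts through counting alone, and their part in this difference was not tested. Within the list, the CV was 10.3 times the counting error or more for every member.

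Most members fell in a narrow band of spread: 5 had a CV under 10%, 128 between 10% and 20%, 58 between 20% and 40%, and 9 at 40% or more. The CV was much alike along the list. Its median was 17.1% for ranks 1 to 50, 17.2% for ranks 51 to 100, 17.02% for ranks 101 to 150 and 16.3% for ranks 151 to 200. The median CV was 16.1% in controls, and 16.3%, 17.2%, 21.3%, 18.2% and 15.3% from 0.12 to 10 ng/L. At 2.5 ng/L it was 17.4% without replicate 7.

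**Figure D3:**
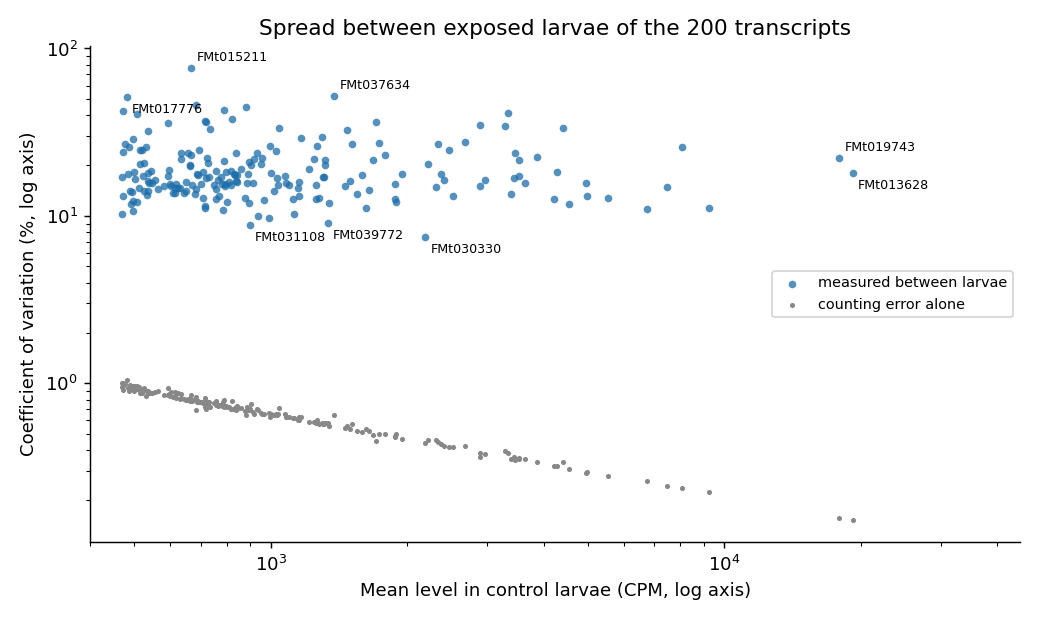
Coefficient of variation between exposed larvae of the same concentration and experiment (percent, log axis; median of 15 combinations) against the mean control level (CPM, log axis) for each of the 200 transcripts in blue, with the value that counting error alone would give in grey. The measured values lie between 7.49% and 75.9%, and the grey values between 0.153% and 1.05%.

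The steadiest member was FMt030330, at rank 34, with a CV of 7.49%. It ran from 1712 to 3014 CPM in controls (median 2185) and from 1847 to 3062 CPM over all exposed larvae (median 2282). FMt031108 followed at 8.88% and FMt039772 at 9.13%. FMt039772 averaged between 1282 and 1392 CPM in the exposed groups.

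The most variable member was FMt015211, with a CV of 75.9%. It ran from 111 to 1842 CPM in controls (median 413). Its lowest exposed larva had 55.1 CPM, at 2.5 ng/L, and its highest 2223 CPM, in the same group. The medians in the exposed groups were 427, 294.5, 428.5, 429 and 345.5 CPM in order of concentration. The ranges of all groups overlapped. Its experiments differed: exposed larvae averaged 400.1 ± 381 CPM (SD, n = 36) in experiment 1, 874 ± 628 CPM (n = 37) in experiment 2 and 584 ± 430 CPM (n = 37) in experiment 3, and experiment 2 was above experiment 1 by 1.14 ± 0.27 (SE; edgeR adjusted p = 0.00406). That direction held in 4 of the 5 concentrations. FMt017776 had a CV of 51.4%, with a range of 112 to 1457 CPM in controls and 23.7 to 1548 CPM in exposed larvae.

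FMt037634, with a CV of 51.8% and rank 51, was spread in another manner, noticed after its values were seen. In 7 larvae it had between 3.92 and 8.60 CPM, on 68 to 229 reads, and in the remaining 132 larvae between 363 and 2971 CPM. No larva lay between 8.60 and 363 CPM, a gap of 42.2-fold. The next largest gap in any member was 5.99-fold, in FMt026136, where 2.5 ng/L replicate 52 alone had 287 CPM and every other larva 1718 CPM or more.

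The 7 larvae were 2 of 29 controls, 3 of 30 larvae at 1.2 ng/L and 2 of 28 at 10 ng/L. At 0.12, 2.5 and 5 ng/L there were 0 of 17, 0 of 18 and 0 of 17. Those at the low level are control replicates 17 and 18, 1.2 ng/L replicates 8, 13 and 62, and 10 ng/L replicates 3 and 23. Of the larvae in experiment 1, 6 of 46 were at the low level, compared with 0 of 46 in experiment 2 and 1 of 47 in experiment 3. The group medians of FMt037634 were 1444 CPM in controls and 1207, 956, 1105.5, 1264 and 919 CPM from 0.12 to 10 ng/L. No concentration was called against control, with log2 differences from −0.42 to −0.19 and SEs from 0.30 to 0.35.

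**Figure D4:**
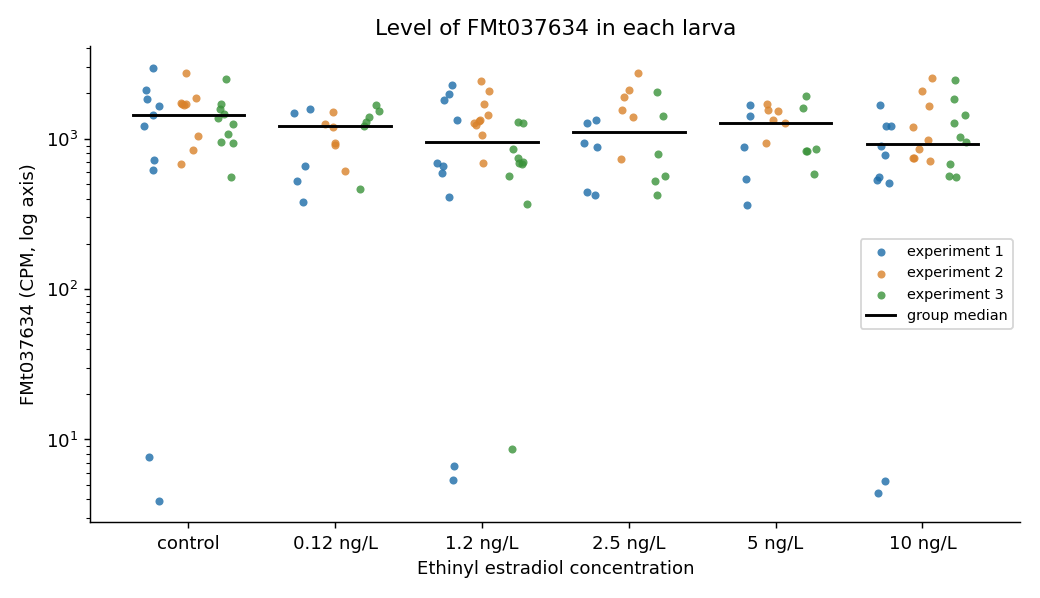
Level of FMt037634 (CPM, log axis) in each larva by EE2 concentration; points are larvae coloured by experiment and black lines are group medians. The 7 larvae at 3.92 to 8.60 CPM lie apart from the other 132, which have 363 CPM or more.

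Members rose and fell together from larva to larva. After the means of each concentration and experiment were taken off, log2 CPM of 2 members correlated with a median r of 0.19 over 19900 pairs of members and 109 exposed larvae (replicate 7 left out), and with quartiles of −0.13 and 0.46. A single component held 39.8% of the members' variation. All these values share a library and its total, so a transcript that takes a larger part of the reads lowers the rest. With TMM scaling the median r was 0.40. These correlations are a description of these larvae and no test was made on them.

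Joining members whose mean r was at least 0.6, a limit chosen after the data were seen, gave 7 sets of 4 or more members that hold 121 of the 200. At limits of 0.5 and 0.7 there were 12 and 8 such sets, holding 154 and 96 members, and the first set had 84 and 45. The joining used the same exposed larvae, so a high r within a set there follows from it. At 0.6 the first set has 79 members, among them FMt019743, FMt007225, FMt006732, FMt024643 and FMt034822. Its median r was 0.70 in exposed larvae (0.82 with TMM scaling) and 0.59 in the 29 controls. It held between 8.39% and 18.5% of the reads of an exposed larva other than replicate 7, with a median of 11.4%, and 29.8% in replicate 7. Of the 69 members called at 2.5 ng/L with that library included, 58 belong to this set.

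The second set has 12 members, led by FMt026703, FMt033173, FMt011957, FMt013772 and FMt022653. Its median r was 0.72 in exposed larvae (0.55 with TMM scaling) and 0.68 in controls. It held between 0.437% and 2.03% of the reads, and 0.293% in replicate 7, the lowest of all exposed larvae. As a part of the reads, it moved against the first set. The median r between a member of the first set and a member of the second was −0.58 in exposed larvae and −0.53 in controls. No value with TMM scaling is given for this r, and a larger first set leaves fewer reads for the second. The larvae with the largest shares in the first set after replicate 7 were 1.2 ng/L replicate 53, at 18.5%, and 0.12 ng/L replicate 8, at 17.2%. They had the next lowest shares in the second set, at 0.437% and 0.646%, and TMM factors of 0.814 and 0.785.

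**Figure D5:**
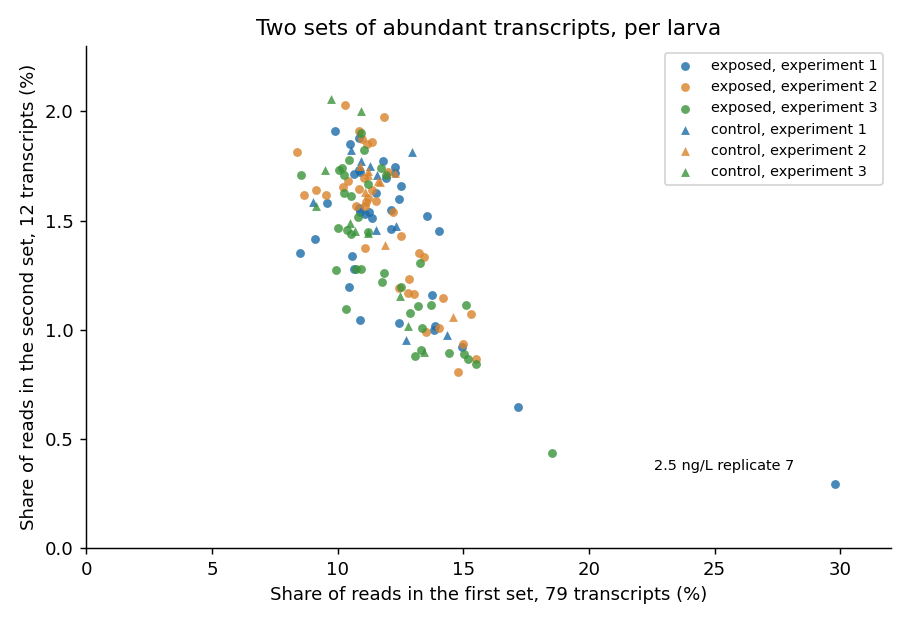
Share of reads in the second set of co-varying transcripts (12 members, percent, vertical axis) against that in the first set (79 members, percent, horizontal axis), with a point for each larva; circles are exposed larvae, triangles controls, and colours the experiments. Larvae with more reads in the first set have fewer in the second, and replicate 7 of 2.5 ng/L lies at the end of that spread, at 29.8% and 0.293%.

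The shares of both sets overlapped between all concentrations. For the first set the medians were 11.3% in controls and 11.7%, 11.2%, 12.4%, 12.1% and 10.9% from 0.12 to 10 ng/L, the 2.5 ng/L value being 11.9% without replicate 7. For the second set they were 1.63% in controls and 1.52%, 1.62%, 1.253%, 1.43% and 1.44%, with 1.34% at 2.5 ng/L without replicate 7. Another set, of 8 members, led by FMt023909, FMt028941 and FMt028943, had the highest median r of the 7 sets in exposed larvae, at 0.86. In controls it had 0.88, and a set of 4 members led by FMt005599 was higher, at 0.92. The 8 members had a median CV of 36.7%, above that of the list. Their share ran from 0.212% to 2.42% of the reads of an exposed larva, the highest being replicate 7 and the next 2.22%.

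The transcripts most like the most abundant, FMt013628, over the 110 exposed larvae were FMt013627 (r = 0.89), FMt013625 (0.76) and FMt013626 (0.67). The same values over the 29 controls were 0.91, 0.88 and 0.72, and within the single experiments the values among exposed larvae lay between 0.58 and 0.94. These 4 transcripts have consecutive identifiers. In all, 16 members lie in 7 such runs, and reads shared by near-identical transcripts may have been divided among them, so their separate levels are uncertain. Consecutive members did not always move together: FMt011525 and FMt011526 had an r of −0.06, and FMt024639 and FMt024640 of −0.10.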

How the data were processed

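mRNA of single whole larvae was sequenced, with libraries made by the SENSE mRNA-Seq V2 kit, per the labels' protocols. The authors deposited a table of raw read counts per transcript and library, with reads assigned to known mRNAs of this fish according to the series' design text. The tools edgeR 3.26.8, limma 3.40.6 and bcl2fastq 2.19.1 stand in the submitters' processing notes. Not given in the sources used here are the aligner, the strand setting and the treatment of reads shared between similar transcripts. A row without an identifier (1.64e-05% of reads) was left out, and 0 columns were unmapped. No copies were found among libraries of the same concentration and experiment. Over 503 such pairs, the chi-square of the counts was at least 9.53 times its degrees of freedom. Pairs across concentrations or experiments were not compared.

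Members and lists were chosen with earlier results of these data known. Levels are counts divided by the column total. Tests used R 4.3.3 and edgeR 4.0.16: filterByExpr (minimum count 10, minimum total 15), TMM, and a robust quasi-likelihood model with group and experiment, fitted on the whole table for all larvae (35340 transcripts) or the 110 exposed (34930). All 200 members passed both filters. Calls are Benjamini-Hochberg adjusted p under 0.05 over the whole table, and SE is the log2 difference divided by the root of F. Named are the first 10 members, those around the limit, the 3 steadiest and 3 most variable, per comparison the 2 largest called rises and falls of like direction in all experiments (or concentrations), and for joint tests the 2 smallest p. The method was tested on counts simulated for 10 against 0.12 ng/L. Of 10 members changed 1.25-fold, 20% were called, and of 10 changed 1.5-fold, 60%. At 2-fold and at 4-fold, 100% of 10 members were called. The simulated transcripts varied independently, with no difference between experiments and no library composed like replicate 7. These rates may therefore not hold for the real larvae, whose members vary together. Alternatives were RLE or no scaling, other filters, DESeq2 1.42.0, limma-voom 3.58.1, other terms, stricter thresholds and larvae or experiments left out. Sets came from average linkage, after the data were seen. Counting error alone sets a CV of 0.153% to 1.05% for the members.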

Additional observations from a re-analysis of the deposited data

Results flagged for a closer look

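In 3 of the 18 combinations of concentration and experiment, a larva lay far from the others in the share of reads held by the 200 transcripts. The flag sets the gap to the nearest larva against the range of the combination, and chance alone flags about 1 in 20 such groups. The share is a sum over transcripts chosen for their level. The count of 3 is therefore a description, and no excess over chance is read from it. Of the 18, 3 hold control larvae, whose levels chose the transcripts. In 2.5 ng/L replicate 7 of experiment 1 the share was 49.4%, and the other larvae of that combination had 28.3% to 33.6%. It also held the highest value of all larvae for 93 of the 200 members and the lowest for 42. In control replicate 28 of experiment 2 the share was 35.7%, beside 29.7% to 32.4% in the others. In 1.2 ng/L replicate 37 of experiment 2 it was 35.8%, beside 29.7% to 32.2%.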

How the results depend on the processing

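No member was called under any alternative at 0.12, 1.2 or 5 ng/L against control, for the trend, for 10 against 0.12 ng/L or for the interaction of trend and experiment. At 2.5 ng/L the 69 calls became 25 at an adjusted p under 0.01 (0.464% of all transcripts) and 27 at 1.5-fold or more (0.722%). They became 0 with no scaling factor (0.0311%), limma-voom (0.0113%), only these 2 groups, without experiment 1, without experiment 3 or without replicate 7 (0.0142%). At 10 ng/L, fitting only the 2 groups gave 1 call, and in the joint test of concentrations DESeq2 gave 6 and dropping the experiment term 1. The joint test of experiments gave 9 calls at an adjusted p under 0.01 and 19 to 26 otherwise. Experiment 2 against 1 gave 1 at 1.5-fold or more. Experiment 3 against 1 gave 6 at an adjusted p under 0.01 and 1 at 1.5-fold or more. Experiment 3 against 2 gave 1 and 0 under these, 3 with no scaling factor, 2 with limma-voom, 2 without shallow libraries and 8 without replicate 7. The other counts here, and the splits with no scaling factor, stand without a share over all transcripts and describe the settings only. The cause of these changes was not tested. For the members named in a comparison, 119 of 149 recomputed tests kept the call and 30 lost it. Of those with a direction, 0 changed sign, and the joint tests have no direction.

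The title numbers were checked as a pairing: deviations of 284 pairs of larvae with the same number had a median r of −0.016. The median over 2364 pairs with other numbers in the same experiment was the same. No pairing by number showed in these values, which cannot exclude a weaker one or one in other transcripts. With the number as a replicate block, the calls at 2.5 ng/L were 0.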
